A study of Mus musculus with 4 samples.

Results

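The nuclear genes of respiratory complex III, cytochrome c, complex IV and ATP synthase were followed along the length of 4 mouse tibialis anterior muscles. Members were all genes in rows of their own whose symbol begins with Uqcr, with Cox4 to Cox8 or with Atp5, together with Cyc1 and Cycs, and without pseudogenes marked by the suffix ps. This took 46 of 28989 genes, of which 9 belong to complex III (Cyc1 included), 18 to complex IV, 18 to ATP synthase and 1 is cytochrome c. The rule rested on names alone and used no measured value. The members, lists and contrasts were nonetheless chosen with earlier results of these data known. Of the 46 members, 41 passed the filter on low counts and were tested. The 5 that were not had few transcripts over all kept sections: 86 for Cox4i2, an isoform best known from lung, 20 for Cox6b2 and 4 for Cox7b2, both known from testis, 19 for Cox6c2, which the files class as a processed pseudogene although its name has no such suffix, and 82 for a second Atp5o identifier whose annotated span runs through neighbouring genes.

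Tibialis anterior flexes the ankle and is made mostly of fast fibres. Each of the 4 muscles was cryosectioned, and the RNA of single sections was sequenced by TOMO-seq with CEL-Seq2, which counts transcript 3′ ends with unique molecular identifiers (UMIs). All 4 muscles form a single group, with no treatment named. The labels give no strain, genotype, sex or age, and leave unstated whether each muscle had its own animal. The edgeR p-values measure only how differences between zones vary among these 4 muscles, after differences in level between muscles are removed. That spread may be technical.

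Complex III passes electrons from ubiquinol to cytochrome c, complex IV passes them from cytochrome c to oxygen, and both pump protons whose return through ATP synthase drives ATP formation. Complexes III, IV and ATP synthase are built from many nuclear subunits and a few core subunits encoded in mitochondrial DNA. Several complex IV subunits have a form typical of heart and skeletal muscle and a form found in most tissues, often called the liver form, and oxidative muscle fibres hold more of all these complexes than glycolytic fibres.

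The authors kept 171 sections (37, 45, 46 and 43 in muscles 1 to 4), with 18924848, 17114433, 26989829 and 22878407 transcripts. Single sections held 86190 to 1159697 transcripts. Sections were ordered by barcode number and split, muscle by muscle, into 5 equally long zones. The labels do not give the cutting direction, so the first end (zone 1) means the low barcode numbers and the last end (zone 5) the high ones. Counts were summed per muscle and zone into 20 sums of 1989683 to 6604613 transcripts. CPM below are counts scaled to library size with TMM factors, a scaling that aligns the bulk of genes between sums, and a gene was called at an edgeR adjusted p under 0.05 over all 9317 genes tested. One barcode set served muscles 1 and 2 and another served muscles 3 and 4, so the set may act as a batch. It was not a term of its own in the main fit, which took muscle into account, but fits were also made within each set alone. The summed level of 6 skeletal muscle fibre markers was 34170 to 44160 CPM in zone 1 and 37910 to 44610 CPM in zone 5, so the labelled tissue was seen at both ends.

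Nearly all members were higher at the first end of the muscle than at its last end. Of 41 tested members, 27 rose at the first end (65.9%) and 0 fell, at a background of 2.04% of all genes called higher and 1.14% called lower (3.18% either way). At an unadjusted p under 0.05, 38 members were higher and 0 lower, beside 657 and 600 of all 9317 genes. DESeq2 called 31 members higher and 0 lower (background 1.74% and 0.676%). The difference was positive in 40 of 41 members, and in 37 of them it was positive in all 4 muscles. The median log2 difference of the members was 0.26, beside -0.0030 over all genes tested, and the members ranged from -0.01 for Atp5g2 to 0.41 for Atp5g1. All 3 assemblies took part, with 7 of 9 members called in complex III, 8 of 14 in complex IV and 11 of 17 in ATP synthase, and median differences of 0.30, 0.28 and 0.26.

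**Figure D1:**
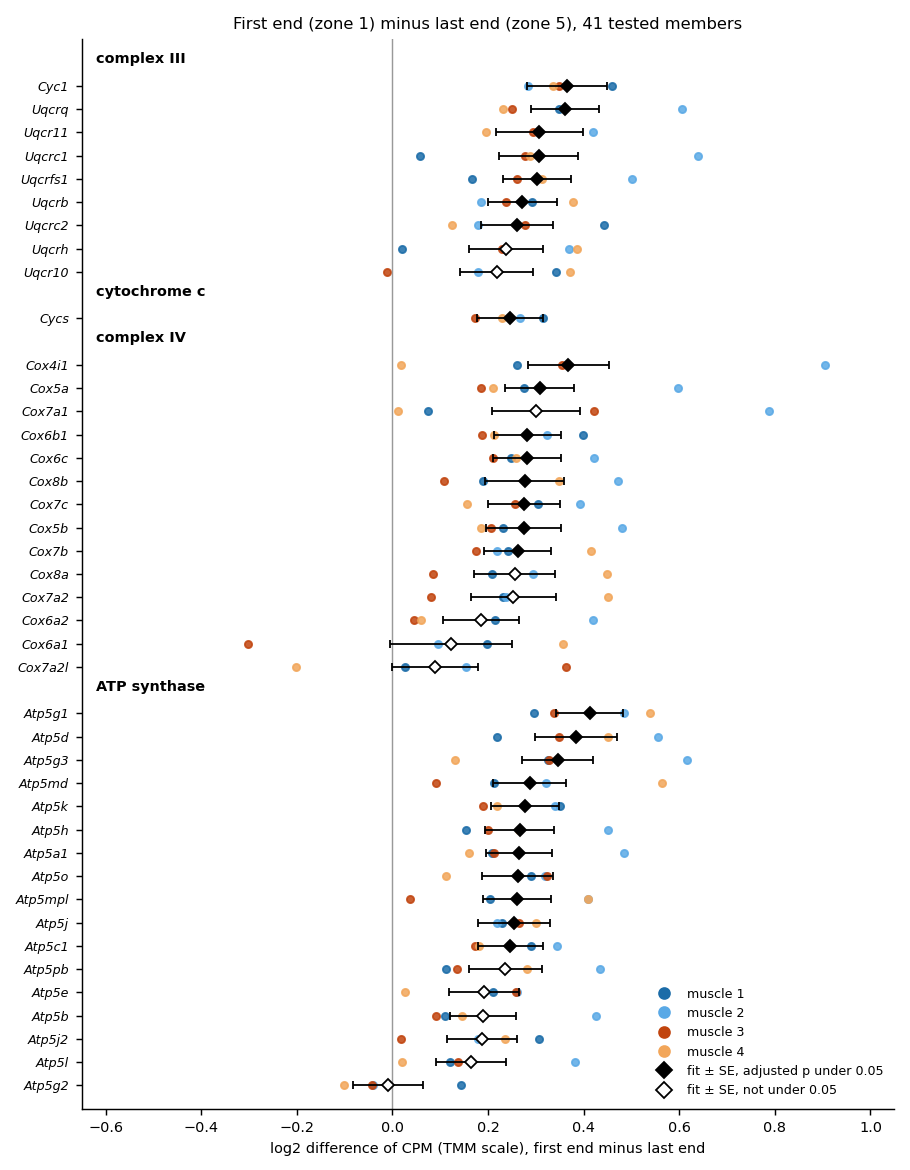
Log2 difference of each of the 41 tested members between the first end (zone 1) and the last end (zone 5), as 1 point per muscle and the fitted value with its standard error (SE), with filled diamonds for the 27 called members. Nearly all fitted values lie right of 0, with Atp5g2 at -0.01 as the exception, and the points of muscle 2 are often the farthest to the right.

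The calls depended on single muscles and on the scaling. With 1 muscle left out, edgeR called 14 members without muscle 1, 2 without muscle 2 (Atp5g1 and Cyc1), 14 without muscle 3 and 18 without muscle 4, and the median difference was between 0.24 and 0.29. The share of all genes called higher was 0.555% without muscle 2 and at most 1.49% in the other 3 fits. Within the barcode set of muscles 1 and 2 alone, 8 members were called (background 1.31% called higher) and the median was 0.32, and within that of muscles 3 and 4 alone 1 was called (background 0.402%) and the median was 0.21. With library totals in place of TMM, 0 members were called (5 at an unadjusted p under 0.05; background 0.386%). On that scale the median of all genes was -0.11 and that of the members 0.14, so the members lay 0.25 above the median gene, against 0.27 with TMM, and 40 of 41 lay above it in both cases.

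Mitochondrially encoded transcripts, which made up 59.1% to 66.9% of a muscle's counts, moved with this scale. Their share was 62.9%, 65.5%, 64.5% and 66.5% in zone 1 of muscles 1 to 4, against 58.6%, 55.4%, 62.5% and 65.8% in zone 5. It was thus the higher of both ends in each muscle. The summed members without Cox6a2, whose level would otherwise dominate, took 36526, 35674, 32406 and 30871 CPM in zone 1 when CPM were taken over non-mitochondrial transcripts, against 31164, 27918, 27592 and 24185 in zone 5. On this scale the first end was above the last end in every muscle, by a mean log2 difference of 0.29 ± 0.07 (SD, n = 4). Over all transcripts, the same sums were 13557, 12302, 11497 and 10338 CPM in zone 1, against 12903, 12454, 10358 and 8268 in zone 5. Here the log2 difference was 0.13 ± 0.14 (SD, n = 4), and it was negative in muscle 2. In a two-sided exact sign-flip permutation test over the 4 muscles the p was 0.13 on the non-mitochondrial scale, the smallest that 4 muscles allow, and 0.25 on the scale of all transcripts. The values of the single sections showed the same contrast. Spearman's rho between section position and the summed members without Cox6a2 was -0.71, -0.83, -0.45 and -0.68 in muscles 1 to 4 on the non-mitochondrial scale, and -0.16, -0.14, -0.12 and -0.33 on the scale of all transcripts. These are descriptions over the 37 to 46 sections of a muscle, which share that muscle and its library.

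**Figure D2:**
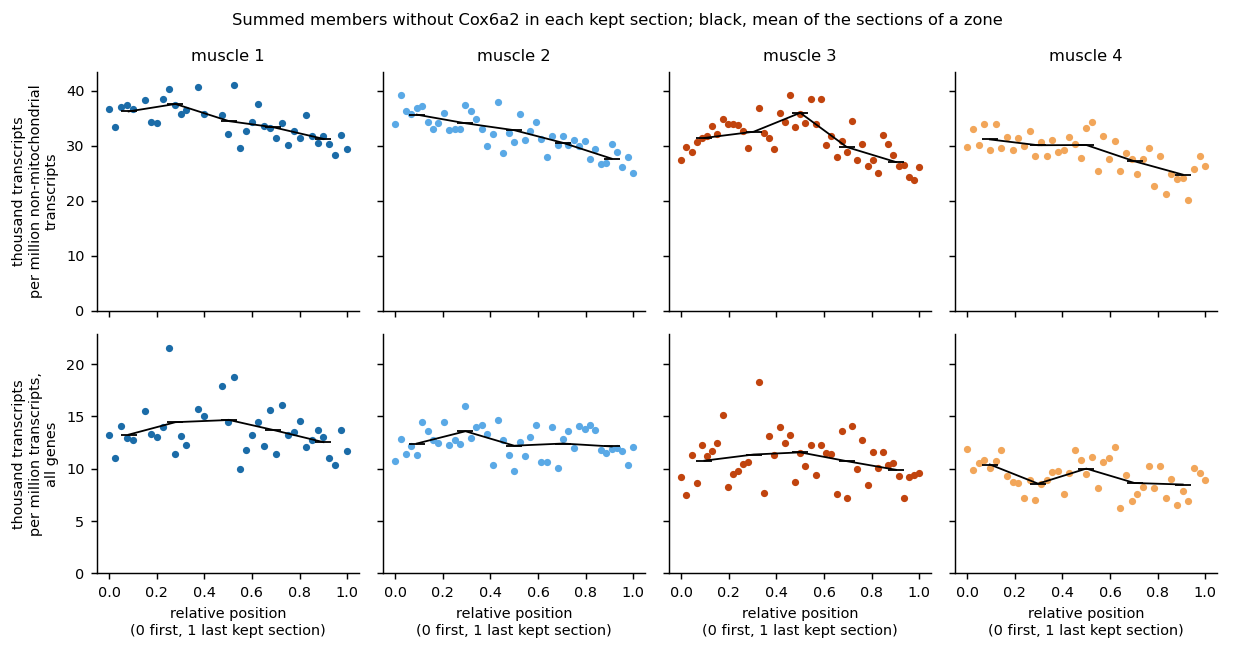
Summed members without Cox6a2 in each kept section against relative position, in 4 muscles, in CPM of non-mitochondrial transcripts (top) and in CPM of all transcripts (bottom), with black lines joining the means of the sections of each zone. The top row is lowest in the last zone in each muscle, after a peak in zone 3 in muscle 3. The bottom row is flatter, with rho between -0.12 and -0.33.

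The decline was not a steady slope in each muscle. Relative to zone 3, the median fitted log2 difference of the members was 0.07 in zone 1, 0.02 in zone 2, -0.08 in zone 4 and -0.20 in zone 5. The last zone was the lowest of the 5 for 33, 34, 31 and 25 of the 41 members in muscles 1 to 4. The highest zone differed between muscles. It was zone 1 for 30 members in muscle 2 and 21 in muscle 4, zone 2 for 19 members in muscle 1 (zone 1 for 18), and zone 3 for 21 members in muscle 3. In the test for any difference among the 5 zones, 18 of 41 members were called (43.9%) at a background of 3.98%. Without muscles 1 to 4 in turn, 9, 4, 4 and 12 were called (backgrounds 3.42%, 2.12%, 1.91% and 3.45%). With library totals in place of TMM, 1 was called (background 2.45%).

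Among complex III genes, Cyc1 and Uqcrq differed most between the ends. Cyc1 encodes cytochrome c1, the haem subunit that hands electrons to cytochrome c, and lies at chr15:76343523-76346260 on the + strand (GRCm38). Its level was 108, 87.3, 72.1 and 75.5 CPM in zone 1 of muscles 1 to 4, against 78.5, 71.6, 56.6 and 59.8 CPM in zone 5. Each muscle was higher at its first end, although the ranges over muscles overlap because muscles differ in level. The fitted log2 difference of Cyc1 was 0.36 ± 0.08 (SE; edgeR adjusted p = 0.00460). Uqcrq, a small membrane subunit at the ubiquinone side of the complex, had 683, 694, 404 and 413 CPM in zone 1, against 537, 456, 339.8 and 352 CPM in zone 5. It was higher at the first end in 4 of 4 muscles (0.36 ± 0.07, edgeR adjusted p = 0.000823).

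The catalytic and core subunits of complex III rose together with these. Uqcrfs1, the Rieske iron-sulfur protein, rose by 0.30 on the log2 scale, and the core proteins Uqcrc1 and Uqcrc2 by 0.31 and 0.26. Uqcrc1 had muscle values between 0.06 in muscle 1 and 0.64 in muscle 2. The small subunits Uqcr11 and Uqcrb rose by 0.31 and 0.27. The 2 members of complex III that were not called were Uqcrh, the acidic hinge protein near cytochrome c1 (0.24, edgeR adjusted p = 0.0870), and Uqcr10 (0.22, edgeR adjusted p = 0.117), which was lower at the first end in muscle 3 alone. Cycs, the mobile carrier cytochrome c itself, had 1574, 1462, 1406 and 1401 CPM in zone 1, against 1265, 1215, 1248 and 1195 CPM in zone 5. All 4 first-end values lay above all 4 last-end values, and the fitted difference was 0.25 ± 0.07 (SE; edgeR adjusted p = 0.0305).

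In complex IV, whose nuclear subunits sit around the mitochondrially encoded core, 8 of 14 tested members rose at the first end. Cox6a2, the muscle form of subunit VIa and the most abundant member, was among the 6 that were not called. Cox4i1, the common form of subunit IV, which binds ATP as a regulator, had 262, 252, 165 and 170.2 CPM in zone 1, against 219, 135, 129 and 168 CPM in zone 5. Its log2 differences were 0.26, 0.90, 0.36 and 0.02 in muscles 1 to 4, so muscle 2 was far above and muscle 4 was close to 0. The fitted value was 0.37 ± 0.08 (SE; edgeR adjusted p = 0.00470), and without muscle 2 it was not called. Cox5a, a matrix-side subunit, had 342, 345, 427 and 599 CPM in zone 1, against 282, 228, 376 and 517 CPM in zone 5. It was higher at the first end in 4 of 4 muscles (0.31 ± 0.07, edgeR adjusted p = 0.00577) and it too was not called without muscle 2. The other complex IV genes called were Cox6b1, a subunit on the intermembrane side (0.28), Cox6c (0.28), Cox8b (0.28), Cox7c (0.28), the zinc-binding subunit Cox5b (0.27) and the X-linked Cox7b (0.26).

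The 6 uncalled members, Cox6a1, Cox6a2, Cox7a1, Cox7a2, Cox7a2l and Cox8a, ranged from 0.09 for Cox7a2l to 0.30 for Cox7a1. Cox7a2l, named for its likeness to Cox7a2, is known as an assembly factor that joins complexes III and IV, and it was higher at the first end in 3 of 4 muscles. Cox6a2 had 6673, 6515, 4296 and 6128 CPM in zone 1, against 5749, 4873, 4165 and 5879 CPM in zone 5. It was higher at the first end in 4 of 4 muscles, but by 0.04 and 0.06 on the log2 scale in muscles 3 and 4 against 0.22 and 0.42 in muscles 1 and 2 (fitted 0.19 ± 0.08 SE; edgeR adjusted p = 0.263). In the section where it used most, Cox6a2 used 86.9% of the possible UMIs, the highest share of any member, so its highest levels rest on a large collision correction, while Cycs reached 44% and each other member at most 32.6%.

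In ATP synthase the largest differences were those of Atp5g1 and Atp5g3, genes of the c ring, and of Atp5d in the central stalk, while Atp5g2, the other c ring gene, had the lowest value of all members. Atp5g1, Atp5g2 and Atp5g3 encode the same mature c subunit, the rotor ring that carries protons through the membrane, with different import sequences. Atp5g1 lies at chr11:96068852-96075670, Atp5g2 at chr15:102662864-102672352 and Atp5g3 at chr2:73908447-73911326, all on the - strand (GRCm38). Since the 3 genes give 1 mature protein but did not move alike, their promoters are shown, as the 250 bases before the RefSeq start site on the gene's strand (GRCm38.p6). Capitals mark matches to 2 motifs, the palindrome of nuclear respiratory factor 1 and TCAAGGTCA, bound by oestrogen-related receptors, each searched on both strands. The windows are chr11:96075632-96075881 for Atp5g1, chr2:73911327-73911576 for Atp5g3 and chr15:102671048-102671297 for Atp5g2, all on the - strand.
Atp5g1: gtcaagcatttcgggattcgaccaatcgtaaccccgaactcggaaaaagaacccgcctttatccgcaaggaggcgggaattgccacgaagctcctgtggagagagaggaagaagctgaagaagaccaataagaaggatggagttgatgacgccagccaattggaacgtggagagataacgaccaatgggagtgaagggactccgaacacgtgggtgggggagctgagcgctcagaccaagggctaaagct
Atp5g3: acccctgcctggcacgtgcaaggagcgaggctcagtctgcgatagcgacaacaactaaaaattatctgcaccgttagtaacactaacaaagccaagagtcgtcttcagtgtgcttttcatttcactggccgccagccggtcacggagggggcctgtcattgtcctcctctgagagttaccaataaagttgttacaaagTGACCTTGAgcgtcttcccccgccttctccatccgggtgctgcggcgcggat
Atp5g2: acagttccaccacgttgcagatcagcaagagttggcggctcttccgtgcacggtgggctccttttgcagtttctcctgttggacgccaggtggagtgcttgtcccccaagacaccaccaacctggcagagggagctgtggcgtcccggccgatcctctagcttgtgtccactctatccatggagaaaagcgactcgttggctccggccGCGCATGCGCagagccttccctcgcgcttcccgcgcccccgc

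Atp5g1 had 738, 701, 477 and 593 CPM in zone 1 of muscles 1 to 4, against 601, 501, 377 and 408 CPM in zone 5. Atp5g3 had 572, 570.2, 599 and 588 CPM in zone 1, against 456, 372, 477 and 537 CPM in zone 5. Atp5g2 had 572, 488, 381 and 535 CPM in zone 1, against 518, 502, 392 and 573 CPM in zone 5. Atp5g1 and Atp5g3 were thus higher at the first end in 4 of 4 muscles, and for Atp5g3 all first-end values lay above all last-end values, while Atp5g2 was higher in muscle 1 alone. The fitted log2 differences were 0.41 ± 0.07 for Atp5g1 (edgeR adjusted p = 6.19e-05), 0.35 ± 0.07 for Atp5g3 (edgeR adjusted p = 0.00249) and -0.01 ± 0.07 for Atp5g2 (SE; edgeR adjusted p = 0.979). Atp5g1 was called under 16 of 19 other settings, more than any other called member, among them each set of 3 muscles and each barcode set alone, but not with library totals in place of TMM (0.28, edgeR adjusted p = 0.167).

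Within the c subunit, the share of Atp5g2 differed between the ends in each muscle. Atp5g2 gave 30.4%, 27.7%, 26.1% and 31.2% of the transcripts of the 3 genes in zone 1, against 32.9%, 36.5%, 31.5% and 37.8% in zone 5. The first-end share was the lower one every time. The log2 ratio of Atp5g1 to Atp5g2 was higher at the first end by 0.15, 0.53, 0.38 and 0.64 in muscles 1 to 4, a mean of 0.42 ± 0.21 (SD, n = 4). That of Atp5g3 to Atp5g2 was higher by 0.18, 0.66, 0.37 and 0.23, a mean of 0.36 ± 0.21 (SD, n = 4). Both ratios moved 1 way in every muscle, with an exact sign-flip permutation p of 0.13 each (two-sided), the smallest the design allows, and 12 such isoform comparisons were made, so none can pass an adjustment. The ratio of Atp5g1 to Atp5g3 had no common direction (0.06 ± 0.24, SD, n = 4). Ratios within a sum do not depend on the scaling of libraries.

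**Figure D3:**
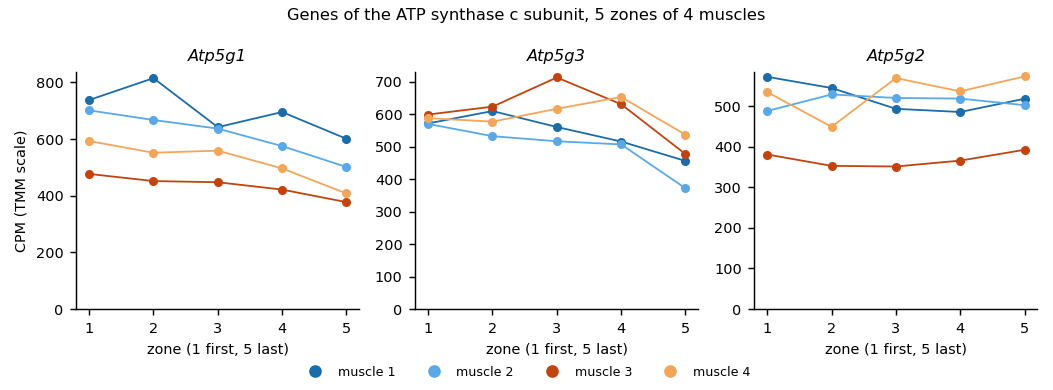
CPM of the 3 genes of the c subunit in zones 1 to 5, with 1 line per muscle and axes from 0. Atp5g1 and Atp5g3 end lower in zone 5 than in zone 1 in every muscle, and Atp5g2 is level, with a fitted first-end difference of -0.01.

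In the printed windows Atp5g2 held the nuclear respiratory factor motif at -42, counted from the start site to the motif's first base, and Atp5g3 the oestrogen-related receptor motif on the other strand at -52. Neither motif nor CCGGAAGT, bound by ETS factors such as GABP, was found in the window of Atp5g1. Promoters of 300 bases (250 before and 50 after the start) were given by RefSeq for 34 member symbols. A member symbol was counted once if any of its promoters held the motif, while the background counts each promoter, so the units differ. The nuclear respiratory factor motif was found for 4 of them (Atp5g2, Atp5k, Cox6a1 and Uqcrc1), or 11.8%, beside 0.971% of 32851 promoters. The oestrogen-related receptor motif was found for 1 (Atp5g3), or 2.94%, beside 0.423%. CCGGAAGT was found for 4 (Atp5h, Cox8a, Uqcr11 and Uqcrh), or 11.8%, beside 3.89%. These are matches of letters, not sites of binding.

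The rest of ATP synthase followed the same direction. Atp5d, the delta subunit of the central stalk, had 174, 158, 102 and 102 CPM in zone 1, against 149.6, 107, 80.2 and 74.2 CPM in zone 5. Each muscle was higher at its first end (0.38 ± 0.09 SE; edgeR adjusted p = 0.00347). Of the other stalk subunits, gamma (Atp5c1) rose by 0.25 and epsilon (Atp5e) was not called (0.19, edgeR adjusted p = 0.177). Of the catalytic head, the alpha subunit Atp5a1 rose by 0.26 and the beta subunit Atp5b was not called (0.19, edgeR adjusted p = 0.142). Of the peripheral stalk, the d subunit Atp5h rose by 0.27, the oligomycin-sensitivity protein Atp5o by 0.26 and coupling factor Atp5j by 0.25, and the b subunit Atp5pb was not called (0.24, edgeR adjusted p = 0.0775). Of the small membrane subunits that help ATP synthase to dimerise, Atp5md rose by 0.29, Atp5k by 0.28 and Atp5mpl by 0.26, while Atp5j2 (0.19) and Atp5l (0.16) were not called. Atp5b, which was not called, had log2 differences of 0.11, 0.43, 0.09 and 0.15 in muscles 1 to 4, again with muscle 2 apart.

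The mean of both ends of the muscle differed little from its middle, while the ends taken singly lay on either side of it. Relative to zone 3, the median fitted log2 difference of the members was 0.07 in zone 1 and -0.20 in zone 5. Of 41 tested members, 1 was lower at the ends (2.44%, at a background of 0.826% called lower) and 0 were higher (background 0.623%, and 1.45% either way). At an unadjusted p under 0.05, 8 members were lower and 0 higher, beside 585 and 520 of all 9317 genes. DESeq2 called 1 member lower and 0 higher (background 0.322% and 0.698%). The median log2 difference was -0.08, beside -0.0055 over all genes, and it was negative in 31 of 41 members. The called member was Cox8b, the heart and muscle form of subunit VIII. Muscle 4 bore on this count, since without it 2 members were called (background 1.01% called lower). Muscle 3 bore on the median, which was -0.041 without it, with 2 members at an unadjusted p under 0.05. In muscles 1 and 2 alone the median was -0.0063 and 21 of 41 members lay above the median of all genes, and in muscles 3 and 4 alone it was -0.12, with 6 of 41 above.

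**Figure D4:**
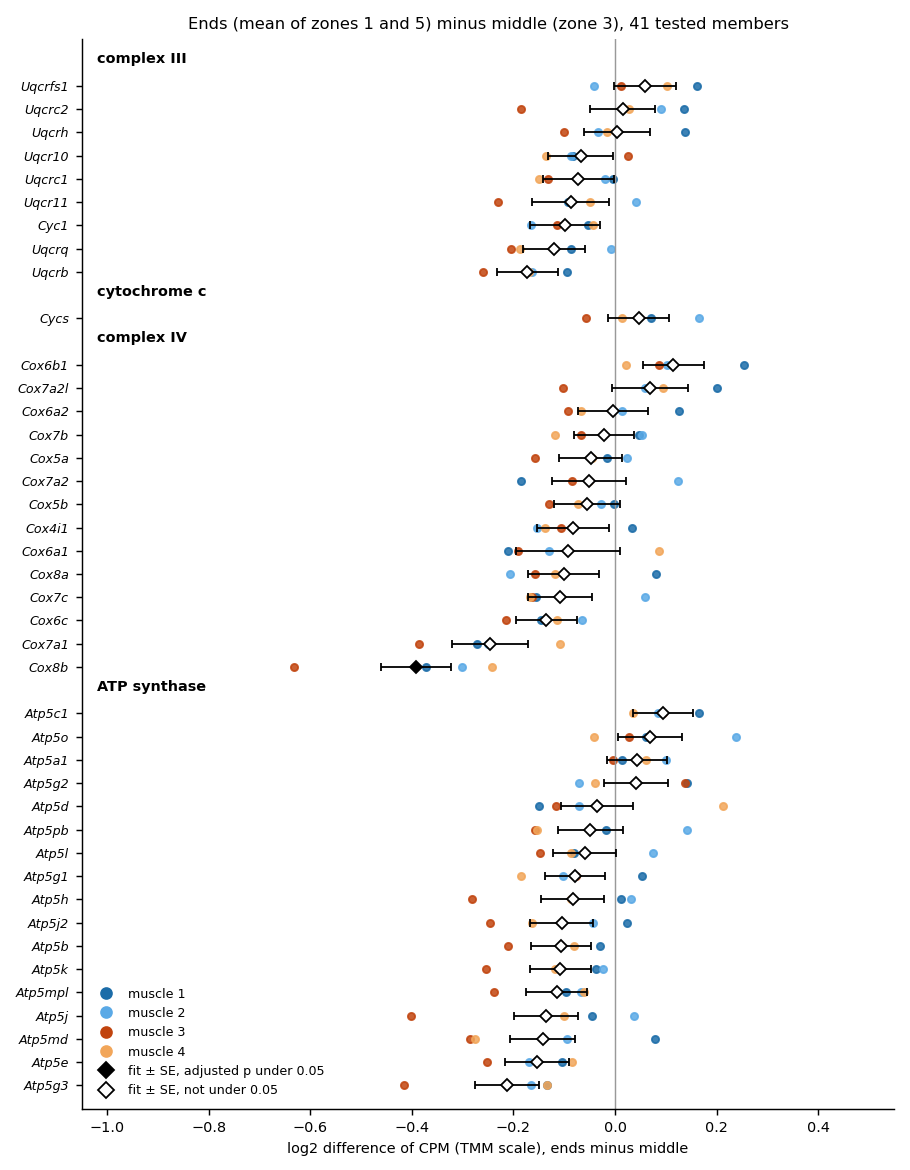
Log2 difference of each of the 41 tested members between the ends (mean of zones 1 and 5) and the middle (zone 3), as 1 point per muscle and the fitted value with its SE. Cox8b, the only filled diamond, lies at -0.39, and most other fitted values lie between -0.21 and 0.11.

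Cox8b lies at chr7:140898945-140900446 and Cox8a, the liver form of the same subunit, at chr19:7215153-7217616, both on the - strand (GRCm38). Their promoters, the 250 bases before the RefSeq start site at chr7:140900447-140900696 and chr19:7217617-7217866 on the - strand (GRCm38.p6), are shown because the 2 forms of 1 subunit differed in their profiles. None of the 3 motifs lies whole in these stretches, and the CCGGAAGT match of Cox8a is thus not wholly before its start site. The printed Cox8a stretch ends in the opening bases of that motif on the other strand, so the match may span the start site.
Cox8b: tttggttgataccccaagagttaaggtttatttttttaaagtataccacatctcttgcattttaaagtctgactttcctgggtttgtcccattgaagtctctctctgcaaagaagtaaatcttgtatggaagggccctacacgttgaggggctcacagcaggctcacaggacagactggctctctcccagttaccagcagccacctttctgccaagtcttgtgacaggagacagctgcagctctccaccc
Cox8a: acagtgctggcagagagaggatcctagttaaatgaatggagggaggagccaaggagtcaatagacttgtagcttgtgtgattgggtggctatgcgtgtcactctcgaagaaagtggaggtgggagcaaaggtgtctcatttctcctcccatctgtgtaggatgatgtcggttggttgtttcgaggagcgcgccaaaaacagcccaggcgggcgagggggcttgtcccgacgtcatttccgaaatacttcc

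Cox8b had 322, 292, 238 and 283 CPM in zone 1 and 282, 210.0, 221 and 223 CPM in zone 5 of muscles 1 to 4, against 390.1, 305, 356 and 297 CPM in zone 3. Both ends were below the middle in every muscle. The log2 differences were -0.37, -0.30, -0.63 and -0.24, with muscle 3 the lowest, and the fitted value was -0.39 ± 0.07 (SE; edgeR adjusted p = 0.000201). It was called without any single muscle, in each barcode set alone and with library totals in place of TMM, but not with 3 zones. Cox8b was at the same time higher at the first end than at the last, with 0.28 ± 0.08 (SE; edgeR adjusted p = 0.0456). That first-end call held under 6 of 19 other settings, and was lost with DESeq2 and in each barcode set alone. The lowest zone of Cox8b was the last zone in 3 muscles and zone 4 in muscle 3. Cox8a had a log2 difference of -0.10 ± 0.07 between the ends and the middle (SE; edgeR adjusted p = 0.612).

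Muscle forms of complex IV predominated at the transcript level. CEL-Seq2 counts 1 3′ tag per transcript, so shares of tags need no division by length. Cox6a2 gave 99.6% ± 0.04 of the transcripts of Cox6a2 and Cox6a1, Cox8b gave 77.1% ± 4.14 of those of Cox8b and Cox8a, and Cox7a1 gave 57.2% ± 1.66 of those of Cox7a1 and Cox7a2 (SD, n = 4). Cox8b made up 79.8%, 78.4%, 75.8% and 70.8% of the Cox8 pair in zone 1 and 80.01%, 76.2%, 75.5% and 72.2% in zone 5, against 84.5%, 78.4%, 81.2% and 73.2% in zone 3. The log2 ratio of Cox8b to Cox8a was below the middle value in all 4 muscles, by a mean of -0.29 ± 0.21 (SD, n = 4). The ratio of Cox7a1 to Cox7a2 was likewise below the middle value in each muscle, with -0.21 ± 0.16 (SD, n = 4). So were the c subunit ratios of Atp5g1 to Atp5g2 (-0.12 ± 0.08) and of Atp5g3 to Atp5g2 (-0.26 ± 0.22, SD, n = 4). For each of these ratios the exact sign-flip permutation p was 0.13 (two-sided), the smallest possible. Cox7a1 itself, with -0.25 ± 0.08 at the ends (SE; edgeR adjusted p = 0.0785), and Cox7a2, with -0.05 ± 0.07 (edgeR adjusted p = 0.865), were not called. Cox6a2 showed no difference between the mean of the ends and the middle of a size this design resolves (-0.0040 ± 0.07 SE, edgeR adjusted p = 0.993). The pair of Cox4i2 and Cox4i1 was not compared because Cox4i2 had a zone sum of 1 transcript, under the minimum of 10.

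**Figure D5:**
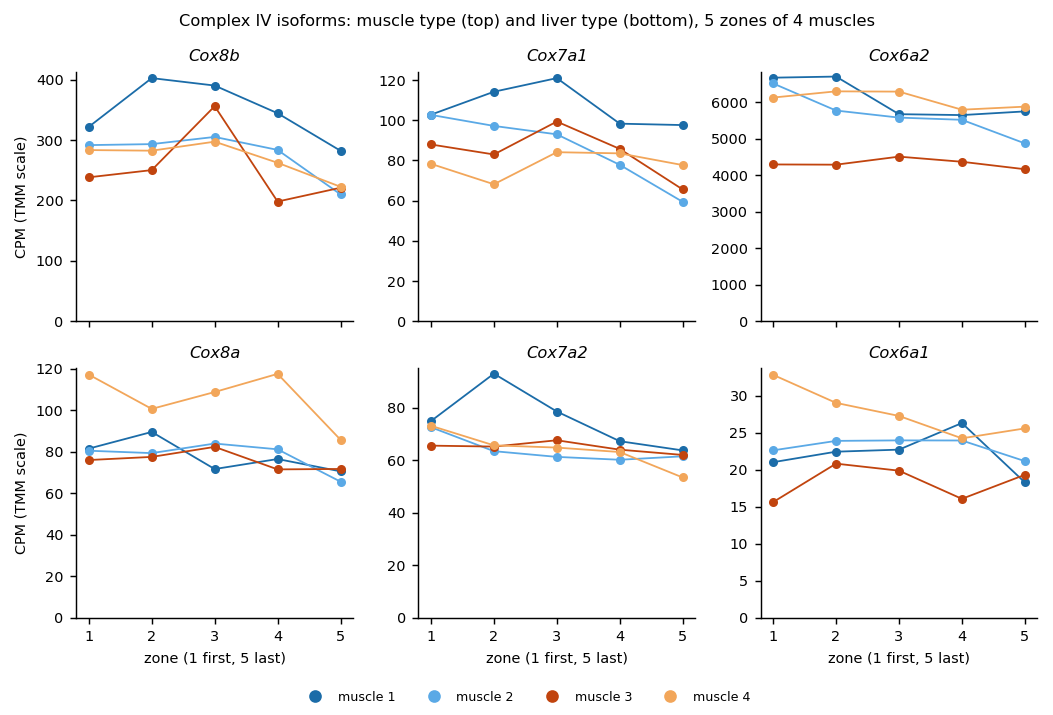
CPM of the muscle forms (top) and liver forms (bottom) of 3 complex IV subunits in zones 1 to 5, with 1 line per muscle and axes from 0. Cox8b peaks in zone 2 or 3 in every muscle and lies at 210.0 to 282 CPM in zone 5, and Cox6a2 lies far above the other genes at 4165 to 6703 CPM.

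Partner genes of the same complexes were compared in lists that the rule did not use. Of 6 mitochondrially encoded subunits of complexes III, IV and ATP synthase, 1 rose at the first end, mt-Atp8 (0.32), and the median difference was 0.25. The same gene was lower at the ends than in the middle (-0.39, edgeR adjusted p = 0.00123), although it was 0.07 higher there in muscle 1. Ndufa4, a complex IV subunit that carries a complex I name, rose at the first end (0.26, edgeR adjusted p = 0.0379). Its ends lay below its middle in all 4 muscles, by -0.46 ± 0.06 (SE; edgeR adjusted p = 9.33e-07). Of 36 nuclear subunits of complex I, 12 rose at the first end, with a median of 0.24, and of 4 subunits of complex II 3 rose (Sdha 0.24, Sdhb 0.35 and Sdhc 0.36), with a median of 0.29. Among assembly factors, 2 of 23 tested for complex IV rose, Cox20 (0.42) and Coa6 (0.59), while 0 of 7 for complex III and 0 of 5 for ATP synthase were called, with medians of 0.21, 0.12 and 0.18. At the ends Pet100, an assembly factor of complex IV, rose by 0.37 (edgeR adjusted p = 0.0175). The backgrounds were 2.04% of all genes called higher at the first end, and 0.623% called higher and 0.826% called lower at the ends. The lists were not tested against each other or against these backgrounds.

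Markers of other cell types moved along the same axis, and their part in the results was not tested. Over all genes, 2.04% were called higher and 1.14% lower at the first end, and 0.623% higher and 0.826% lower at the ends. Of the 6 skeletal muscle fibre markers 1 fell at the first end, Myh4, the myosin heavy chain of type 2B fibres (-0.31 ± 0.08 SE; edgeR adjusted p = 0.0240), which was lower in 4 of 4 muscles. The median of the list was -0.14, and Acta1 was its 1 member with a positive value. Each of the 5 erythrocyte markers was called higher at the first end (median 1.68), with a summed level of 1342 to 4215 CPM in zone 1, against 604 to 1611 CPM in zone 5. Of 4 tested tendon markers 3 fell at the first end (10.3 to 21.2 CPM in zone 1, against 34.6 to 132 CPM in zone 5). Beside the ends and middle contrast, both tested markers of type 2A and slow fibres, Myh2 and Myl3, were lower at the ends, with a summed list level of 129 to 646 CPM in zone 1 and 108 to 539.5 CPM in zone 5, against 197.5 to 944 CPM in zone 3. Of 7 markers of fibro-adipogenic progenitors 4 fell at the ends and 1 rose at the first end. Schwann cell markers rose at the first end in 2 of 5 (median 0.74) and fell at the ends in 4 of 5 (median -0.93). Smooth muscle and pericyte markers rose at the first end in 2 of 5 (median 0.46). Among 6 endothelial markers 1 rose at the first end and 1 fell at the ends, where 1 of 2 tested macrophage markers fell. Both tested fat cell markers rose at the ends (median 1.77), as did 2 of 4 tested tendon markers. Of the brown fat list 1 of 3 markers, Cidea, was measured here, at 0 to 0.689 CPM in any zone sum, and it was not tested. In such sums fewer cells of a type and less RNA per cell cannot be told apart.

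The level of 3′ tags ranged widely among the members. Averaged over zones, Cox6a2 stood at 5536 ± 832 CPM, Cycs at 1333 ± 44.3, Atp5h at 883 ± 79.4 and Atp5a1 at 606 ± 128, while Cox6a1 was the lowest tested member at 22.9 ± 3.88 CPM (SD over 4 muscles). Atp5a1, Atp5g1, Atp5g3 and Cox6b1, at 543 to 606 CPM, lay within their spread over muscles. All members together took 5.04%, 4.80%, 4.43% and 4.36% of the non-mitochondrial transcripts of muscles 1 to 4, and Cox6a2 alone held 31.8%, 32.7%, 28.3% and 34.5% of that.

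Levels also differed between the barcode sets. In 22 of 41 members both muscles 1 and 2 lay above muscles 3 and 4, in 6 both lay below, and 28 members (68.3%) did not overlap either way. Over all genes tested the shares were 35.3%, 33.2% and 68.5%, so the members' total is near the background. By direction the members leaned to muscles 1 and 2, with a median log2 difference between the sets of 0.19, beside 0.019 over all genes. The sets and the muscles within them cannot be told apart. From section to section within a muscle, the median pairwise Spearman's rho was 0.52, 0.31, 0.60 and 0.50 over 820 pairs of members in muscles 1 to 4. This describes CPM over section totals, which include the mitochondrially encoded transcripts, and all members share the depth of each section. No such value was taken for pairs of other genes, so whether members moved together more than other genes was not tested.

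Some member counts were incomplete or could include other transcripts. Entries that name several genes, which were left out, held 65.8% of the transcripts of Cox7c, 48.1% of Cox5b, 47.1% of Atp5l and 16.4% of Atp5pb. For Atp5pb these entries occurred almost only in muscles 3 and 4, so its level cannot be compared between barcode sets. Adding them back left 27 members called at the first end (background 2.04% called higher). Among members named above, Atp5a1, Atp5d, Atp5j, Atp5l, Atp5md, Atp5o, Atp5pb, Uqcrb, Uqcrc2, Uqcrh, Cox4i1, Cox5a, Cox6a2 and Cox6c overlap a gene on the opposite strand, and since the use of strand in counting is not given in the sources used here, transcripts of that gene may be included.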

How the data were processed

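Sections of 4 muscles were sequenced by TOMO-seq with CEL-Seq2 primers that carry 6 UMI bases and an 8 base section barcode, per the labels' protocols. Per the submitters' processing notes, alignment used STAR 2.7.7a and GRCm38. Which program and annotation counted the reads, and whether strand was used, is not stated in those sources. The deposited table of each muscle holds estimated counts (not whole numbers) per gene and barcode. From the values, 100% of them equal a whole UMI number corrected for repeated draws out of 4096 (within 0.001). A second deposited table holds a normalized signal. It served to find the kept sections, by its constant ratio to the counts within a section (relative tolerance 1e-06), and for nothing else.

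Zone sums were rounded to whole numbers. Entries naming several genes, 0.580% to 0.930% of a muscle's counts, stayed out of tests and library sizes. All 9317 genes that passed filterByExpr were fitted with edgeR 4.0.16 (R 4.3.3; TMM, quasi-likelihood F-test, Benjamini-Hochberg adjustment). Muscle was the block, since the 5 zones are cut from it. The biological coefficient of variation was 7.03%. Contrasts were zone 1 minus zone 5, the mean of zones 1 and 5 minus zone 3, and any difference among zones. SE were derived from the F statistic. Values per muscle are log2 CPM with a prior count of 1. The script was tested on simulated counts. DESeq2 1.42.0 and limma 3.58.1 were alternatives. Gene positions are from GENCODE M21 (28907 of 28989 identifiers matched). Promoters are from RefSeq.

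All members could be named. Members called at the first end or at the ends were given values in that contrast. Isoform pairs were given values in part, and other members by range and count with their extremes. The members, lists and contrasts were chosen with earlier results of these data known.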

Additional observations from a re-analysis of the deposited data

Results flagged for a closer look

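The muscle values of each tested member were examined in both contrasts, with those of the isoform ratios, for 1 muscle standing apart from the other 3 by Dixon's test for 4 values (critical ratio 0.829). Of 94 such groups 6 stood out, and chance flags about 1 in 20. Muscle 2 was the one apart in 4 of them, muscle 3 in 1 and muscle 4 in 1. At the first end against the last end, muscle 2 was high for Atp5a1 (0.48, against 0.16 to 0.21 in the others), for Cox5b (0.48, against 0.18 to 0.23) and for Atp5b (0.43, against 0.09 to 0.15). For Atp5o, muscle 4 was low (0.11, against 0.29 to 0.32). Between the ends and the middle, Cox7c was 0.059 in muscle 2 (-0.16 or -0.17 in the others) and Atp5g3 was -0.42 in muscle 3 (-0.13 to -0.17 in the others).

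A signal also lay in the entries that name several genes, which the comparisons do not use. They held 65.8% of the transcripts of Cox7c, 48.1% of Cox5b, 47.1% of Atp5l and 16.4% of Atp5pb. For Atp5pb the share was 0.026% and 0% in muscles 1 and 2 and 25.8% and 30.4% in muscles 3 and 4.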

How the results depend on the processing

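At the first end 28 members were called with RLE factors or without mitochondrially encoded genes, 27 without saturated genes and 31 by DESeq2. The backgrounds of all genes called higher were 2.18%, 2.14%, 2.06% and 1.74% in that order of settings. Counts of members called at the first end, at the ends and among zones were 9, 1 and 10 without the filter on low counts, 17, 0 and 13 with 3 zones, 14, 3 and 16 with 10 zones, 14, 1 and 10 without the outermost 2 sections, and 16, 1 and 11 after thinning to equal depth. Backgrounds called higher at the first end, lower at the ends and among zones were 0.441%, 0.247% and 1.2% without the filter. They were 2.1%, 0.24% and 3.55% with 3 zones and 1.15%, 2.45% and 4.92% with 10 zones. Without the outermost sections they were 1.87%, 0.602% and 3.59%, and after thinning 1.57%, 0.547% and 3.51%. DESeq2 called 29 members among zones (background 2.83%). Member counts were 8, 1 and 7 in muscles 1 and 2 alone (backgrounds 1.31%, 0.298% and 2.05%). In muscles 3 and 4 alone they were 1, 1 and 3 (0.402%, 0.413% and 1.72%). They were 0, 1 and 1 with library totals in place of TMM, a setting chosen after seeing the data (0.386%, 0.945% and 2.45%). By limma with equal section weights they were 0, 2 and 2 (0.322%, 1.28% and 2.65%), with 5 members at an unadjusted p under 0.05 at the first end. With 1 muscle left out member counts ranged from 2 to 18, from 1 to 2 and from 4 to 12 (0.555% to 1.49%, 0.298% to 1.01% and 1.91% to 3.45%). No replicate block gave 0, 0 and 0 calls (5, 1 and 0 at an unadjusted p under 0.05), since muscles then add to the spread. The cause of the other changes was not tested.

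The median first-end difference was 0.14 with library totals and 0.13 by limma, and 0.24 to 0.29 with 1 muscle left out. At the ends it was -0.15 with library totals and -0.0063 in muscles 1 and 2 alone. Over all genes 190 were called higher and 106 lower at the first end, against 36 and 129 with library totals and 30 and 101 by limma, which moved the median gene to -0.11 and -0.07. The ratio of Atp5g1 to Atp5g2 at the ends was -0.21 with 10 zones and -0.040 without the outermost sections, beside -0.12.

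The named members whose sign changed were not called in the contrast concerned. Atp5g2 at the first end was 0.028 with 10 zones, 0.061 in muscles 1 and 2 and between -0.062 and 0.022 with 1 muscle left out. Cox6a1 was -0.029 by limma and between -0.0062 and 0.27 with 1 muscle left out. At the ends Cox6a2 was 0.00924 with RLE factors, 0.00923 by DESeq2, 0.0020 without saturated genes, 0.036 with 3 zones, 0.0090 with 10 zones, 0.019 without the outermost sections, 0.0024 with no replicate block, 0.075 in muscles 1 and 2, and between -0.039 and 0.024 with 1 muscle left out. Cox7a2 was between -0.093 and 0.0021 with 1 muscle left out, and Atp5g2 was -0.037 with library totals. Depth limits Cox6a1 most, at 22.9 CPM and an SE of 0.13.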
